A study of Mus musculus with 6 samples.

Results

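The genes of Wnt signaling, from the secreted ligands to the transcription factors that beta-catenin binds, were followed in cultured mouse muscle stem cells (MuSCs). Genes were taken by symbol. All names that begin with Wnt, Fzd, Sfrp, Dkk, Rspo, Dvl, Tcf7 or Lef were included, together with the receptors, coreceptors and regulators Lgr4, Lgr5, Lgr6, Lrp5, Lrp6, Ror1, Ror2, Ryk, Znrf3, Rnf43, Frzb, Wif1, Apcdd1, Axin1, Axin2, Apc and Ctnnb1. Of 18943 genes in the table, 52 met this rule, and 46 of them had a mean value of at least 5 and were tested. MuSCs had been sorted by FACS from wild-type C57BL/6 mice of 8 weeks and were cultured for 5 days with the solvent DMSO, with endothelin-3 (ET-3) or with neurotensin (NT). Both peptides are ligands of G protein-coupled receptors. The labels give a dose of 100 nM for each, while the methods name 1 µM and 1.5 µM, in that order. The series text speaks of triplicates, 2 libraries in each of the 3 groups were analysed here, and the labels do not say whether the libraries of a group came from separate cultures or mice, so p-values measure only the spread between these libraries.

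Wnt proteins are lipid-bearing ligands that leave the cell and bind Frizzled receptors at the surface of the same or a neighboring cell. With the coreceptors Lrp5 and Lrp6 they stop the destruction of beta-catenin, which then enters the nucleus and binds Tcf and Lef factors. With Ror or Ryk coreceptors they act instead on polarity and the cytoskeleton, and both routes use Dishevelled. R-spondins strengthen both responses by removing the ubiquitin ligases that clear Frizzled from the membrane, and secreted inhibitors bind the ligands or the coreceptors. In muscle, Wnt signals are known to act both on the stem cells and on the differentiation of their progeny.

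A value is a read count multiplied by 1 factor per library, and library totals of 4214458 to 4600575 corresponded to 3629306 to 5396581 reads on genes. At a value of 100 the counting error was 8.84% to 10.9%. Fold changes are log2 differences of value + 1 with their SE, from limma's trend method over 13921 genes with Benjamini-Hochberg adjustment. A gene passed the test at an adjusted p of at most 0.05 and was called when it also differed by at least 2-fold. The scale understates the change of low genes. Counting noise alone gives a chi-square of 1 per gene between the reads of a pair of libraries, and the mean over genes was 0.885 between the ET-3, 0.927 between the NT and 1.44 between the DMSO libraries. Over the Wnt genes these means were 1.31, 1.14 and 1.66, so the treated pairs differed by about counting noise. Each library was kept as 1 sample. The Wnt genes still called under both ligands with each treated pair taken as 1 sample are named after the main counts. The counts by role and by pathway list were not repeated that way. Both comparisons with DMSO use the same 2 control libraries.

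Most MuSC markers were read in every group. Pax7, the transcription factor of MuSCs, stood at 857 and 1070 in DMSO, 1754 and 1730 in ET-3 and 1653 and 1599 in NT libraries, and the 10 markers of stem cells and myoblasts summed to 9569 to 10484, 9229 to 9519 and 7963 to 8316. Calcr lay at 0 to 3 over all libraries. Of the 9 tested markers of this list, 3 rose (33.3%) and 4 fell (44.4%) by the adjusted p under ET-3, and 3 rose (33.3%) and 5 fell (55.6%) under NT. Of all tested genes, 30.6% rose and 33.2% fell under ET-3, and 29.7% and 32.5% under NT. None of these 9 markers was called higher. Cdh15 was called lower under both ligands, at 1547 and 1746 with DMSO and 436 to 496 in treated libraries, and Chrdl2 under ET-3. The groups differed in markers of differentiation. All 10 markers of differentiating muscle, among them Myog and Myh3, were called lower under each ligand, against 14.9% (ET-3) and 13.2% (NT) of all tested genes. Their summed values were 15349 to 16983 with DMSO, 408 to 451 with ET-3 and 313 to 419 with NT. The 8 markers of smooth muscle cells and pericytes summed to 3327 to 3754 with DMSO, 756 to 807 with ET-3 and 888 to 933 with NT. Abcc9 was at 851 and 835 with DMSO and at 0 to 4 in treated libraries, Rgs5 at 117 and 150 against 2 to 5, Pdgfrb at 227 and 278 against 3 to 13, Mylk at 120 and 104 against 4 to 10, and Notch3 at 1397 and 1773 against 284 to 409. Cspg4 was at 610 and 612 against 433 to 509, and Myh11 and Kcnj8 lay at 0 to 4 and 0 to 2 over all libraries. Of the 8 fibroadipogenic markers, 6 were listed and summed to 894 to 969, 402 to 481 and 395 to 433, with Gsn as the largest part. Col15a1 was at 80 and 82 with DMSO and at 0 to 1 in treated libraries, Cd248 at 18 and 17 against 1 to 6, and Dcn at 9 and 17 against 0 to 2, whereas Ly6a was at 27 and 18 against 37 to 52 and Pdgfra at 20 and 30 against 26 to 44. Of the endothelial markers 6 of 8 were listed at summed values of 64, 119 to 124 and 98 to 130. Tek was at 2 and 1 with DMSO and at 42 to 70 in treated libraries and Kdr at 16 and 6 against 23 to 26, both called higher under each ligand, Vwf was called lower at 38 and 52 against 13 to 26, and Cdh5 lay at 0 to 5 over all libraries. Of the Schwann cell markers used, 4 were listed and summed to 1616 to 1700, 718 to 739 and 738 to 813, with Erbb3 at 1458 and 1519 against 76 to 102 and Ngfr at 93 and 115 against 591 to 644. The 3 listed macrophage markers summed to 21 to 45 over all libraries. In bulk RNA, fewer cells of a type and less RNA per cell cannot be told apart. The part of all these markers in the results below was not tested.

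Under ET-3, 8 Wnt genes were called higher and 16 lower than with DMSO, and under NT 9 were called higher and 14 lower. By the fitted fold changes, Wnt7b, Lgr6, Rspo1 and Lef1 rose at least 4-fold under each ligand, and Wnt9a, Wnt4, Wnt10a, Dkk3 and Sfrp4 fell at least 8-fold. Rspo1, Wnt10a, Dkk3 and Sfrp4 had few or no reads in their lower group. The higher calls were 17.4% of the 46 tested Wnt genes for ET-3, against 6.62% of all tested genes, and 19.6% for NT, against 7.3%. The lower calls were 34.8% for ET-3, against 14.9% of all tested genes, and 30.4% for NT, against 13.2%. By the adjusted p alone, 15 genes rose and 25 fell under ET-3 (32.6% and 54.3%, against 30.6% and 33.2% of all tested genes), and 16 rose and 24 fell under NT (34.8% and 52.2%, against 29.7% and 32.5%). These shares of all tested genes also stand beside the counts for each role and list below. The tested Wnt genes had a median log2 fold change of -0.34 (ET-3) and -0.19 (NT), beside -0.01 over all tested genes in both comparisons. The 8 higher and 13 lower genes called in both comparisons stand beside 5.85% and 12.5% of all tested genes, and since the comparisons share the DMSO libraries they serve below only as lists. When the treated pairs were averaged into 1 sample each, fewer of all tested genes were called in each direction, and so were fewer Wnt genes. The Wnt genes still called higher under both ligands were Lef1, Lgr6, Rspo1 and Wnt7b. Those still called lower under both were Dkk3, Fzd2, Fzd5, Fzd6, Wif1, Wnt10a, Wnt10b, Wnt4 and Wnt9a.

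**Figure D1:**
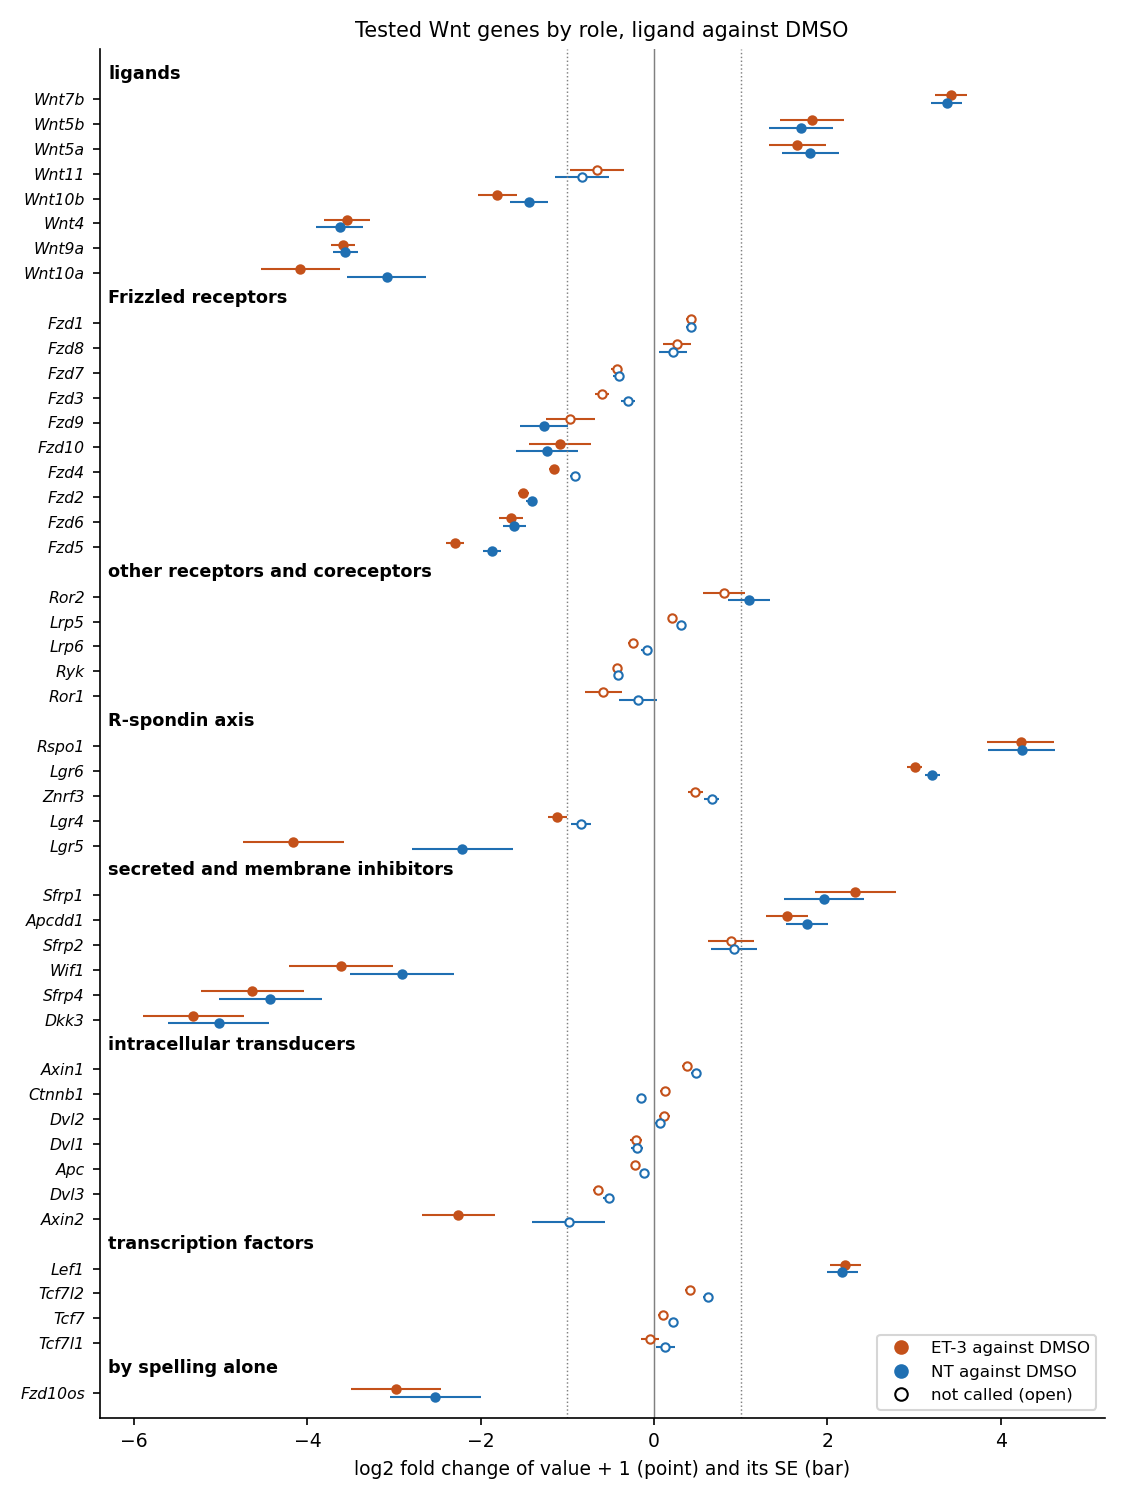
Log2 fold changes of value + 1 against DMSO (x axis) for the 46 tested Wnt genes, grouped by role, with ET-3 in orange and NT in blue. Points are estimates, bars are the SE, filled points were called, and dotted lines mark a 2-fold difference. Ligands and secreted inhibitors spread to both sides, whereas 5 of 10 Frizzled receptors were called lower under each ligand and none higher.

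The start regions of Lgr6 and Wnt9a are shown because Lgr6 had the highest value among genes called higher under both ligands and Wnt9a the highest among ligands in the DMSO libraries, and they moved in opposite directions. RefSeq promoter windows of 300 bases on GRCm38.p6, 250 before and 50 after the start, were matched by symbol to 32 of the 52 genes. The Lgr6 window lies at chr1:135105227-135105526 on the minus strand and that of Wnt9a at chr11:59306680-59306979 on the plus strand. Capitals mark CAGCTG, the palindromic E-box that myogenic factors such as MyoD and myogenin are known to bind.
Lgr6: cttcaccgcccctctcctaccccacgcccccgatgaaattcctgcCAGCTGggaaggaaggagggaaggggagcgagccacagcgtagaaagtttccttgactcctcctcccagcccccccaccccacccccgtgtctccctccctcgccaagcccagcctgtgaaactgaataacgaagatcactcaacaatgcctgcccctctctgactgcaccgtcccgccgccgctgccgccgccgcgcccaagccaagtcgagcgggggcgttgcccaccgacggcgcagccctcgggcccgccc
Wnt9a: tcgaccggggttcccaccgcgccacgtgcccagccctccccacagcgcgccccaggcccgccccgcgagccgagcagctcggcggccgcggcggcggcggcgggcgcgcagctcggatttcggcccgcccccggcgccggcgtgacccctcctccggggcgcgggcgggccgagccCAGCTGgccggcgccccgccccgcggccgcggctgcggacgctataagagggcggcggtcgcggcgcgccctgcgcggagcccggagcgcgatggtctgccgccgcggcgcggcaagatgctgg
Both windows hold CAGCTG once, and neither holds CTTTGA, the core of the Tcf/Lef motif, on either strand. CAGCTG was in 16.3% of all 32851 promoter windows and in 7 of the 42 windows of Wnt genes (16.7%), and CTTTGA was in 16.0% and in 6 of 42 (14.3%). Of the 13 genes called lower under both ligands 6 had a window, of which those of Wnt9a and Fzd10 held CAGCTG and none held CTTTGA. Of the 8 genes called higher under both 4 had a window, with CAGCTG in those of Lgr6 and Lef1 and CTTTGA in those of Lef1 and Wnt5b. A match describes the letters of the window only.

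Wnt ligands changed in both directions, and the leading ligand changed with treatment. Of the 8 tested ligands, 3 were called higher and 4 lower under each peptide. Wnt9a, a ligand of the beta-catenin branch, was read at 526 and 591 in DMSO, 42 and 49 in ET-3 and 42 and 51 in NT libraries. The DMSO libraries were far above all treated ones, and the log2 fold change was -3.59 ± 0.14 (adjusted p = 1.95e-08) for ET-3 and -3.56 ± 0.14 (adjusted p = 2.24e-08) for NT. Wnt4, which muscle fibers are known to release toward MuSCs, had values of 115 and 94 in DMSO, 8 and 8 in ET-3 and 8 and 7 in NT libraries. It fell by a similar amount, with -3.54 ± 0.27 (adjusted p = 1.83e-06) and -3.63 ± 0.27 (adjusted p = 1.68e-06). Wnt10b, known to hold back adipogenesis, stood at 79 and 69 in DMSO, 18 and 23 in ET-3 and 27 and 26 in NT libraries, with log2 fold changes of -1.81 ± 0.22 (adjusted p = 5.56e-05) and -1.44 ± 0.22 (adjusted p = 2.81e-04). Its close relative Wnt10a was low, with 15 and 17 in DMSO, 0 and 0 in ET-3 and 1 and 1 in NT libraries. Against a floor of 3 reads per library, Wnt10a was at least 4.67-fold lower with ET-3, and with NT the ratio of reads was 19.4 (95% interval 4.93 to 168, counting error only) in favor of DMSO. Its fitted log2 fold changes were -4.08 ± 0.46 (adjusted p = 2.75e-05) and -3.08 ± 0.46 (adjusted p = 2.10e-04).

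The ligand that rose most was Wnt7b, known from lung and vascular development, at 11 and 14 in DMSO, 155 and 132 in ET-3 and 129 and 148 in NT libraries. Treated and DMSO libraries did not overlap, and the log2 fold change was 3.42 ± 0.18 (adjusted p = 1.37e-07) for ET-3 and 3.37 ± 0.18 (adjusted p = 1.64e-07) for NT. Wnt5a and Wnt5b, the ligands best known for signaling through Ror2 without beta-catenin, also rose from low levels. Wnt5a was at 9 and 5 in DMSO, 26 and 21 in ET-3 and 27 and 25 in NT libraries, and Wnt5b at 5 and 3 in DMSO, 19 and 14 in ET-3 and 13 and 17 in NT libraries. Their log2 fold changes were 1.65 ± 0.33 and 1.82 ± 0.37 under ET-3 (adjusted p = 0.00142 and 0.00156), and 1.80 ± 0.33 and 1.70 ± 0.37 under NT (8.73e-04 and 0.00254). With treated pairs averaged, neither was called. Wnt11, a ligand of convergent extension, was not called, with -0.66 ± 0.31 and -0.83 ± 0.31.

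**Figure D2:**
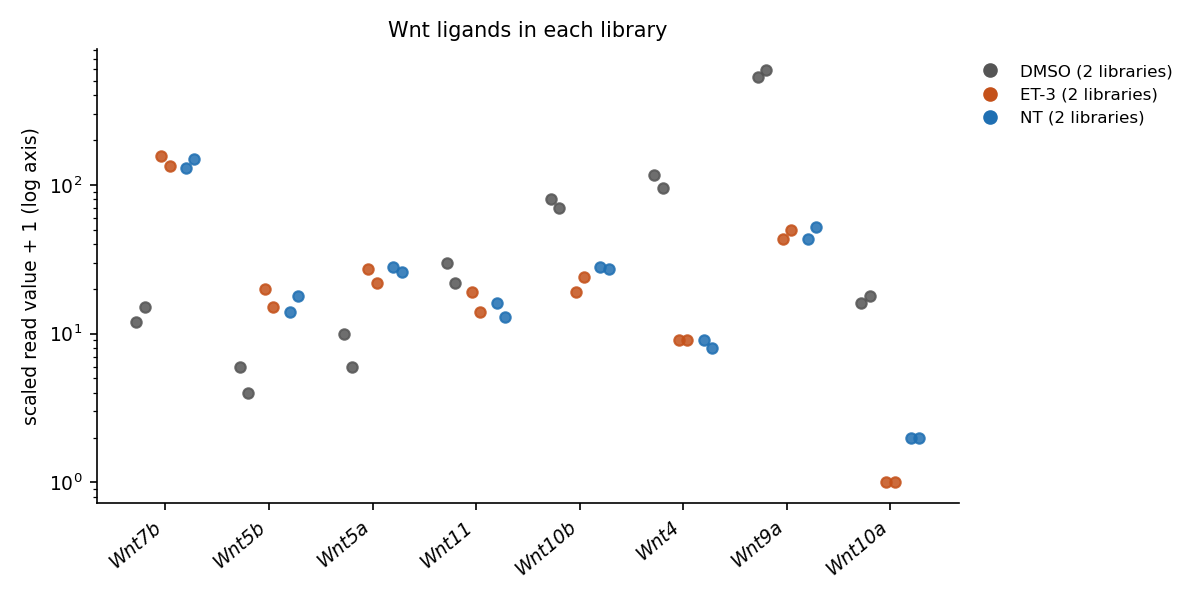
Scaled read values + 1 on a log axis for the 8 tested Wnt ligands in the 6 libraries, 2 per group. Wnt7b, Wnt5b and Wnt5a lie higher in all treated libraries than in both DMSO libraries, and Wnt10b, Wnt4, Wnt9a and Wnt10a lie lower.

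Compared per kilobase of exon, Wnt9a led the ligands with DMSO and Wnt7b with either peptide. The summed ligand level per kb was 230 and 241 in DMSO, 68.1 and 62.4 in ET-3 and 62.6 and 68.5 in NT libraries. Wnt9a held 68.8% and 73.6% of it with DMSO, and Wnt4 followed with 11.9% and 9.29%. In the ET-3 libraries Wnt7b held 46.5% and 43.2%, followed by Wnt9a with 18.5% and 23.6%. In the NT libraries Wnt7b held 42.1% and 44.1%, and Wnt9a 20.2% and 22.4%. These are shares of transcript levels among the 10 ligands of the table. In order of mean level, Wnt9a, Wnt4 and Wnt10b stood at 168, 24.9 and 21.8 per kb with DMSO, and the ranges of Wnt4 and Wnt10b overlapped. With ET-3 the order was Wnt7b, Wnt9a and Wnt5b at 29.3, 13.7 and 6.22 per kb, the last close to Wnt10b at 6.03, and with NT Wnt7b, Wnt9a and Wnt10b at 28.3, 14.0 and 7.79.

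Frizzled receptors, the seven-pass receptors of Wnt proteins, were lower in most cases and none was called higher. Of the 10 tested receptors, 8 fell and 1 rose by the adjusted p under each ligand, and 5 were called lower. The median log2 fold change was -1.03 for ET-3 and -1.07 for NT. Fzd5 had the largest difference, with values of 410 and 425 in DMSO, 76 and 93 in ET-3 and 115 and 112 in NT libraries, and log2 fold changes of -2.30 ± 0.11 (adjusted p = 6.48e-08) and -1.87 ± 0.11 (adjusted p = 2.89e-07). Fzd6, a receptor of the polarity branch, was at 401 and 401 in DMSO, 110 and 146 in ET-3 and 144 and 118 in NT libraries, with log2 fold changes of -1.65 ± 0.14 (adjusted p = 3.08e-06) and -1.61 ± 0.14 (adjusted p = 3.98e-06). Fzd2 was at 635 and 674 in DMSO, 238 and 221 in ET-3 and 243 and 247 in NT libraries, with -1.51 ± 0.06 (adjusted p = 3.39e-08) and -1.41 ± 0.06 (adjusted p = 5.72e-08). In these 3 genes every treated library was below both DMSO libraries.

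Fzd4, also the receptor of norrin, was read at 682 and 653 in DMSO, 297 and 303 in ET-3 and 367 and 341 in NT libraries. It was called under ET-3, with a log2 fold change of -1.15 ± 0.06 (adjusted p = 1.09e-07), and passed the test under NT without reaching 2-fold, with -0.91 ± 0.06 (adjusted p = 5.92e-07). Fzd9 had values of 50 and 32 in DMSO, 20 and 20 in ET-3 and 16 and 16 in NT libraries, and was called under NT with -1.27 ± 0.28 (adjusted p = 0.00271) but not under ET-3 with -0.97 ± 0.28 (adjusted p = 0.0118). These differences between the ligands did not pass the direct test, with adjusted p of 0.0633 for Fzd4 and 0.596 for Fzd9. Without the first DMSO library Fzd9 was at -0.96 under NT, under 2-fold, and without the second it was called under ET-3 as well, at -1.28. Fzd9 was not called under NT with treated pairs averaged. Fzd10 was low, at 30 and 33 in DMSO, 17 and 12 in ET-3 and 9 and 18 in NT libraries, with -1.09 ± 0.36 (adjusted p = 0.0218) and -1.24 ± 0.36 (adjusted p = 0.012). Its call rested on single libraries. Without the first or the second DMSO library the adjusted p was 0.113 and 0.150 for ET-3 and 0.0868 and 0.117 for NT, without the second ET-3 library the log2 fold change was -0.85 for ET-3, and without the first NT library it was -0.77 for NT.

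The receptors that were not called included those with the highest levels under treatment. Fzd1, at 371 and 406 in DMSO, 528 and 517 in ET-3 and 530 and 511 in NT libraries, was the one that rose, with 0.43 ± 0.06 (adjusted p = 1.17e-04) and 0.42 ± 0.06 (adjusted p = 1.34e-04). Fzd7, the receptor through which Wnt7a is known to act on MuSCs, was at 527 and 582 in DMSO, 400 and 422 in ET-3 and 424 and 410 in NT libraries and fell by less than 2-fold, with -0.43 ± 0.06 and -0.41 ± 0.06. Fzd3 fell by less than 2-fold as well, and Fzd8 did not pass the test (0.26 ± 0.16 and 0.22 ± 0.16). Per kilobase, the summed Frizzled level was 703 and 720 in DMSO, 409 and 414 in ET-3 and 442 and 423 in NT libraries. Fzd2 led with DMSO, holding 24.7% and 25.6%, and Fzd1 led in all treated libraries, with 30.8% and 29.7% under ET-3 and 28.6% and 28.8% under NT. Fzd7 was second in all 6 libraries, with 16.6% to 22.5%.

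**Figure D3:**
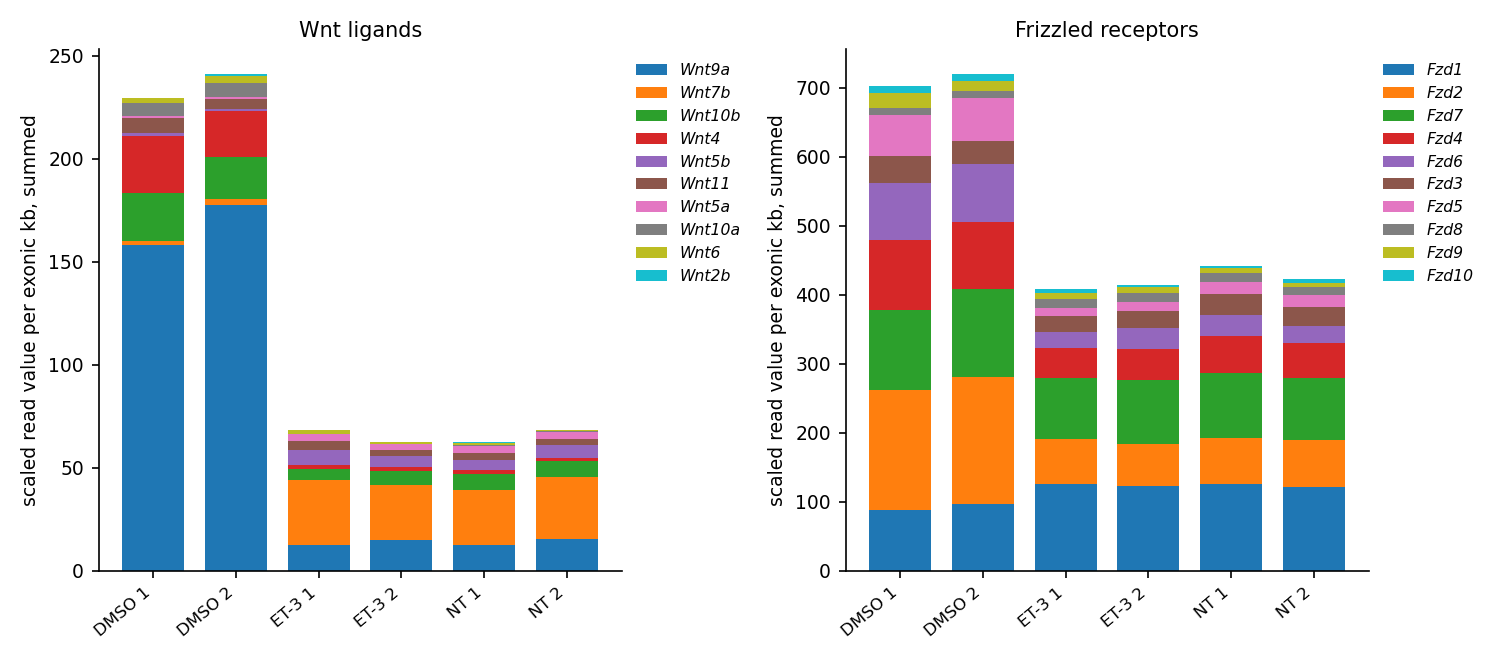
Scaled read values per kilobase of exon in each of the 6 libraries, stacked by gene, for the 10 Wnt ligands (left) and the 10 Frizzled receptors (right); each bar is 1 library. The ligand stack is 230 and 241 with DMSO and 62.4 to 68.5 in treated libraries, with Wnt9a as its largest part with DMSO and Wnt7b under treatment, and the Frizzled stack is 703 and 720 with DMSO and 409 to 442 in treated libraries.

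The other receptors and coreceptors moved little. Of 5 tested, none was called under ET-3 and only Ror2 under NT. Ror2, the receptor tyrosine kinase of Wnt5a, was at 24 and 21 in DMSO, 37 and 43 in ET-3 and 59 and 41 in NT libraries, with log2 fold changes of 0.80 ± 0.24 (adjusted p = 0.0145) and 1.10 ± 0.24 (adjusted p = 0.00274). Without the first NT library its value under NT was 0.84, under 2-fold, and the direct test between the ligands gave an adjusted p of 0.551. Ror2 was not called with treated pairs averaged. The coreceptors of the beta-catenin branch, Lrp5 and Lrp6, stayed within 1 log2 unit. Lrp5 was at 622 and 611 in DMSO, 707 and 711 in ET-3 and 779 and 746 in NT libraries and rose slightly, with 0.20 ± 0.05 (adjusted p = 0.00338) and 0.31 ± 0.05 (adjusted p = 2.47e-04). Lrp6 was at 978 and 991 in DMSO, 779 and 884 in ET-3 and 944 and 910 in NT libraries, with -0.25 ± 0.06 (adjusted p = 0.00465) and -0.09 ± 0.06 (adjusted p = 0.231). Ryk, a pseudokinase receptor with the highest level per kb of the 5 in all libraries, was at 778 and 811 in DMSO, 585 and 598 in ET-3 and 601 and 587 in NT libraries and fell, with log2 fold changes of -0.42 ± 0.05 and -0.42 ± 0.05. Its share of the summed level was 52.7% and 54.5% with DMSO and 43.5% to 47.2% in treated libraries.

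The R-spondin receptors moved in opposite directions. Lgr6, a receptor of R-spondins that marks stem cells in skin, was at 86 and 100 in DMSO, 709 and 798 in ET-3 and 920 and 818 in NT libraries. Its treated libraries were all at 709 or above and its DMSO libraries at or under 100, and the log2 fold change was 3.01 ± 0.09 (adjusted p = 3.69e-09) for ET-3 and 3.21 ± 0.09 (adjusted p = 3.70e-09) for NT. Lgr4, the broadly expressed receptor of the family, stood at 340 and 337 in DMSO, 136 and 178 in ET-3 and 188 and 188 in NT libraries, with -1.12 ± 0.11 (adjusted p = 1.34e-05) and -0.85 ± 0.11 (adjusted p = 1.01e-04). It was called under ET-3 alone, the direct test between the ligands gave an adjusted p of 0.218, and without the first ET-3 library its fold change under ET-3 was -0.92. Lgr5, the stem cell marker of the intestine, was low at 22 and 41 in DMSO, 0 and 2 in ET-3 and 8 and 4 in NT libraries. It was called lower under both, with -4.17 ± 0.58 (adjusted p = 1.35e-04) and -2.21 ± 0.58 (adjusted p = 0.00754), and the ratio of reads between DMSO and ET-3 was 26.9 (95% interval 7.13 to 228, counting error only). Under NT, Lgr5 was not called with treated pairs averaged. Nor was it called under NT without the second DMSO library, at -1.78, or without the second NT library, at -1.79.

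Rspo1, the ligand of these receptors, was at 0 and 0 in DMSO, 21 and 15 in ET-3 and 16 and 20 in NT libraries. It had no read in either DMSO library, which allows a value of up to 2.95 and 3.44 at a floor of 3 reads, and was at least 5.64-fold higher with either peptide. The fitted log2 fold changes were 4.23 ± 0.39 (adjusted p = 6.71e-06) and 4.24 ± 0.39 (adjusted p = 7.04e-06), which depend on the pseudocount. No other R-spondin gene was among the genes analysed here. Znrf3, the ubiquitin ligase that R-spondins remove from the membrane, was at 209 and 235 in DMSO, 298 and 320 in ET-3 and 330 and 374 in NT libraries and rose by less than 2-fold, with 0.48 ± 0.09 (adjusted p = 7.19e-04) and 0.66 ± 0.09 (adjusted p = 8.02e-05). Summed per kilobase, the 6 genes of this axis were at 99.9 and 106 in DMSO, 175 and 195 in ET-3 and 217 and 209 in NT libraries. Lgr4 held 57.9% and 54.2% of the level with DMSO, and Lgr6 held 57.0% to 61.8% in the treated libraries.

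**Figure D4:**
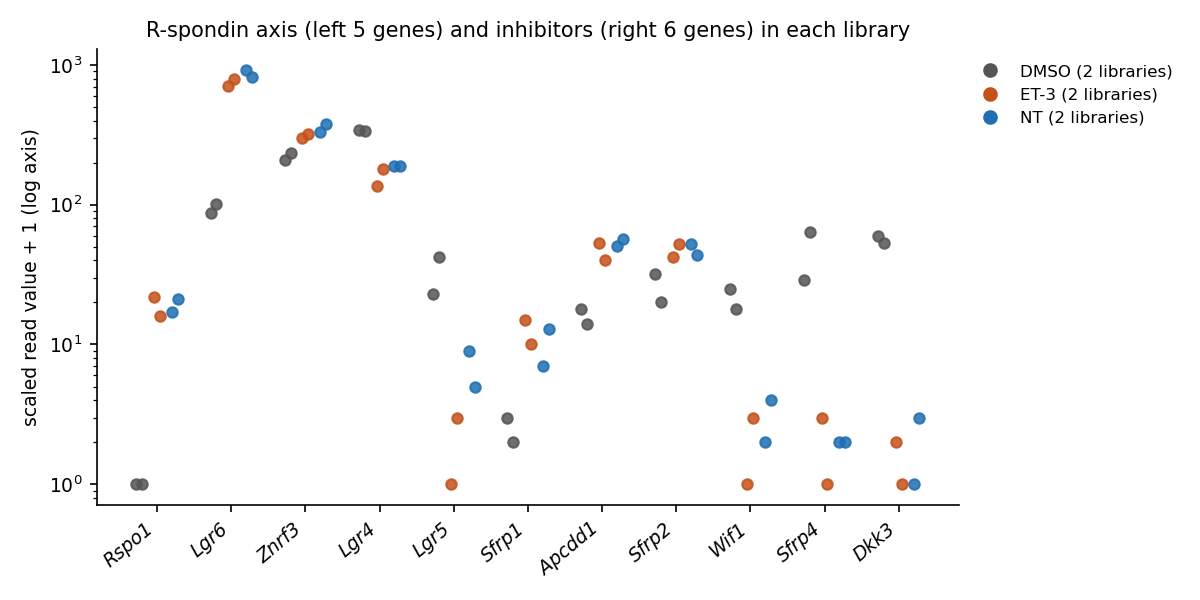
Scaled read values + 1 on a log axis for the 5 tested genes of the R-spondin axis and the 6 tested inhibitors in the 6 libraries, 2 per group. Rspo1 and Lgr6 lie higher in all treated libraries, Lgr4 and Lgr5 lower, and among inhibitors Sfrp1, Apcdd1 and Sfrp2 lie higher and Wif1, Sfrp4 and Dkk3 lower.

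The inhibitors split into genes that fell to a few reads and genes that rose. Of 6 tested, 3 were called lower and 2 higher under each ligand, and all 6 passed by the adjusted p. Dkk3, a divergent Dickkopf protein, had values of 59 and 52 in DMSO, 1 and 0 in ET-3 and 0 and 2 in NT libraries. With 1 read in the ET-3 libraries and up to 3 in the NT libraries, where a value of 2 can stem from 2 or 3 reads, the ratio of reads between DMSO and ET-3 was 97.5 (95% interval 17.1 to 3887) and between DMSO and NT, taken at 3 reads, 45.4 (15.1 to 224), and the fitted log2 fold changes were -5.32 ± 0.59 (adjusted p = 2.49e-05) and -5.02 ± 0.59 (adjusted p = 3.95e-05). Sfrp4, a secreted protein that binds Wnt ligands, was at 28 and 63 in DMSO, 2 and 0 in ET-3 and 1 and 1 in NT libraries. Its DMSO libraries differed from each other by more than 2-fold, yet every treated library lay below both, with ratios of reads of 38.5 (10.3 to 323) and 53.8 (14.4 to 452) and log2 fold changes of -4.64 ± 0.60 (adjusted p = 7.48e-05) and -4.43 ± 0.60 (adjusted p = 1.08e-04). Wif1, which binds Wnt ligands outside the cell, was at 24 and 17 in DMSO, 0 and 2 in ET-3 and 1 and 3 in NT libraries, with -3.61 ± 0.60 (adjusted p = 4.43e-04) and -2.91 ± 0.60 (adjusted p = 0.00188). These intervals cover counting error only, and with treated pairs averaged Sfrp4 was not called under either ligand.

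Sfrp1 and Apcdd1 moved the other way. Sfrp1, of the same family as Sfrp4, was at 2 and 1 in DMSO, 14 and 9 in ET-3 and 6 and 12 in NT libraries, with ratios of reads between treated and DMSO libraries of 7.18 (95% interval 2.13 to 37.7) for ET-3 and 5.66 (1.70 to 29.5) for NT. Its log2 fold changes were 2.32 ± 0.47 (adjusted p = 0.00148) and 1.96 ± 0.47 (adjusted p = 0.00426), and under NT the adjusted p was 0.0551 without the second DMSO library and 0.0554 without the second NT library. Apcdd1, a membrane protein that binds Wnt and Lrp5, stood at 17 and 13 in DMSO, 52 and 39 in ET-3 and 50 and 56 in NT libraries, with 1.54 ± 0.24 (adjusted p = 3.30e-04) and 1.76 ± 0.24 (adjusted p = 1.33e-04). With treated pairs averaged, neither gene was called. Sfrp2 had the highest level of the family in treated libraries and rose by less than 2-fold, with 0.89 ± 0.26 and 0.92 ± 0.26, at 31 and 19 in DMSO, 41 and 51 in ET-3 and 51 and 43 in NT libraries. Per kilobase the 7 listed inhibitors summed to 50.3 and 47.6 with DMSO and to 27.4 to 29.9 in treated libraries. Dkk3 led with DMSO at 34.9% and 32.5%, and Sfrp2 led in treated libraries at 67.1% to 80.0%.

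Inside the cell, Axin2 under ET-3 was the only call among the transducers. Of 7 tested genes, 1 was called under ET-3 (14.3%, near the 14.9% of all tested genes called lower) and none under NT. By the adjusted p, 1 rose and 4 fell under each ligand (14.3% and 57.1%). Of all tested genes, 30.6% rose and 33.2% fell under ET-3, and 29.7% and 32.5% under NT. Axin2, a scaffold of the destruction complex and a common readout of beta-catenin activity, was low at 14 and 22 in DMSO, 2 and 4 in ET-3 and 7 and 10 in NT libraries. It was called lower under ET-3 with -2.26 ± 0.42 (adjusted p = 9.17e-04) and did not pass under NT with -0.99 ± 0.42 (adjusted p = 0.0648). The difference between the ligands was 1.28 ± 0.42 (adjusted p = 0.132) on the log2 scale and did not pass either. With the ET-3 pair averaged, the adjusted p against DMSO was 0.0635. The result under NT depended on the setting, with an adjusted p of 0.0349 with voom and 0.0306 with a pseudocount of 5, and a log2 fold change of -0.68 without the second DMSO library and -1.29 without the first (adjusted p = 0.261 and 0.0684). Ctnnb1, which encodes beta-catenin, was the most abundant of the transducers, at 1808 and 1979 in DMSO, 2109 and 2022 in ET-3 and 1748 and 1662 in NT libraries, and was not called in any comparison. Its log2 fold change was 0.13 ± 0.05 (adjusted p = 0.0601) for ET-3 and -0.15 ± 0.05 (adjusted p = 0.0315) for NT. Scaled to library totals, it was 0.22 (adjusted p = 0.00208) and -0.04 (0.513). Under ET-3 it was 0.06 without the first and 0.19 without the second DMSO library (adjusted p = 0.369 and 0.0376), and under NT -0.22 and -0.09 (0.0273 and 0.236). Leaving out any 1 treated library also gave an adjusted p above 0.05 under NT, from 0.0652 to 0.216. Apc, another scaffold of the complex, fell slightly with -0.22 ± 0.04 and -0.11 ± 0.04, and Axin1 rose with 0.38 ± 0.06 and 0.48 ± 0.06. The Dishevelled genes stayed within 1 log2 unit of DMSO, and Dvl3 had the largest difference, with -0.65 ± 0.06 and -0.53 ± 0.06. Per kilobase the 7 transducers summed to 832 and 884 in DMSO, 876 and 829 in ET-3 and 815 and 794 in NT libraries.

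Of the 4 factors that bind DNA with beta-catenin, Lef1 was called higher under both ligands. Lef1, an activator that is also a target of the pathway, was at 23 and 22 in DMSO, 98 and 118 in ET-3 and 95 and 116 in NT libraries, with log2 fold changes of 2.21 ± 0.17 (adjusted p = 2.34e-06) and 2.17 ± 0.17 (adjusted p = 2.80e-06). All treated libraries were at least 4-fold above both DMSO libraries. Tcf7l2, at 268 and 273 in DMSO, 355 and 364 in ET-3 and 423 and 408 in NT libraries, rose by less than 2-fold, with 0.41 ± 0.06 (adjusted p = 1.42e-04) and 0.62 ± 0.06 (adjusted p = 8.04e-06). Tcf7 had the highest level per kb, with 57.8% to 63.3% of the sum in every library, and was at 427 and 434 in DMSO, 474 and 449 in ET-3 and 499 and 505 in NT libraries. It passed the test under NT with 0.22 ± 0.05 (adjusted p = 0.00432) and not under ET-3 with 0.10 ± 0.05 (adjusted p = 0.123). Tcf7l1, mostly known as a repressor, passed in neither, with -0.05 ± 0.11 and 0.13 ± 0.11.

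The symbol rule also took 3 genes by spelling alone. Fzd10os is a noncoding RNA on the other strand from Fzd10, and its gene starts 151 bases from the start of Fzd10 and runs away from it. It was at 30 and 15 in DMSO, 1 and 3 in ET-3 and 2 and 4 in NT libraries. It was called lower, with -2.98 ± 0.52 (adjusted p = 6.15e-04) and -2.52 ± 0.52 (adjusted p = 0.00185), but not with treated pairs averaged. Lefty1, a ligand of the TGF-beta family, was at 1 to 7 and was not tested. Lef1os1, an antisense RNA that shares 1620 bases of gene span with Lef1, was at 2 to 6 and was not tested. The sources name both a stranded and a SMART-Seq kit, so reads of Lef1 and its antisense partner may not be told apart. The other genes under the filter were Frzb (0 to 2), Rnf43 (0 to 6), Wnt2b (0 to 3) and Wnt6 (1 to 8).

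Genes around the pathway were examined in lists of its known parts. Of the enzymes and carriers that release Wnt ligands, 3 of 7 tested (42.9%) were called lower under both ligands, against 12.5% of all tested genes. None was called higher, and the list median was -0.96 for ET-3 and -0.92 for NT. Porcn, the acyltransferase that all Wnt proteins need for secretion, was at 412 and 399 in DMSO, 73 and 60 in ET-3 and 78 and 74 in NT libraries, with -2.60 ± 0.12 (adjusted p = 5.17e-08) and -2.40 ± 0.12 (adjusted p = 9.51e-08). Sulf2 and Sulf1, which trim heparan sulfate at the cell surface, were at 300 and 335 in DMSO, 35 and 48 in ET-3 and 30 and 39 in NT libraries, and at 748 and 755 in DMSO, 278 and 303 in ET-3 and 340 and 334 in NT libraries. Their log2 fold changes were -2.92 ± 0.19 and -1.37 ± 0.06 under ET-3, and -3.17 ± 0.19 and -1.15 ± 0.06 under NT. Of the other extracellular and cytoplasmic inhibitors, 6 of 9 tested (66.7%) were called lower under each ligand, with medians of -1.80 and -1.64. Of all tested genes, 14.9% were called lower under ET-3 and 13.2% under NT. Kremen2, a receptor of Dickkopf proteins, was at 168 and 156 in DMSO, 0 and 0 in ET-3 and 1 and 0 in NT libraries. Sost, which encodes sclerostin, was at 28 and 16 in DMSO, 1 and 0 in ET-3 and 0 and 0 in NT libraries. Dact1 and Nkd1, which bind Dishevelled, were at 250 and 264 in DMSO, 13 and 22 in ET-3 and 35 and 30 in NT libraries, and at 89 and 116 in DMSO, 8 and 9 in ET-3 and 7 and 12 in NT libraries. All 4 were lower in every treated library. Nkd2 was called higher under NT alone, and the direct test between the ligands gave an adjusted p of 0.662. It was low, at 1 and 5 in DMSO, 6 and 10 in ET-3 and 13 and 10 in NT libraries.

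The other lists moved less on balance. None of 17 tested genes of the destruction complex and its casein kinases was called under either ligand, and their log2 fold changes ran from -0.74 to 0.24 for ET-3 and from -0.51 to 0.22 for NT. Of 20 tested partners of beta-catenin in the nucleus, 2 were called lower, a smaller share than of all tested genes, and none higher under each, the corepressors Tle2 (-1.68 ± 0.14 and -1.57 ± 0.14) and Tle4 (-1.35 ± 0.15 and -1.22 ± 0.15). Of 18 tested genes of planar cell polarity, 3 (16.7%) were called lower under each ligand, near the 14.9% and 13.2% of all tested genes. Daam2, a formin that binds Dishevelled, was at 164 and 147 in DMSO, 0 and 5 in ET-3 and 5 and 2 in NT libraries. Prickle1, a core polarity protein, was at 267 and 285 in DMSO, 21 and 8 in ET-3 and 12 and 12 in NT libraries, and the cadherin Celsr3 was at 58 and 55 in DMSO, 6 and 11 in ET-3 and 7 and 5 in NT libraries. Of the list, 1 gene (5.56%) was called higher under each ligand, Celsr1 under ET-3 and Vangl2 under NT. This was a smaller share than the 6.62% and 7.3% of all tested genes. Celsr1 was low, at 3 and 8 in DMSO, 11 and 13 in ET-3 and 9 and 11 in NT libraries. Vangl2, another core polarity protein, was at 126 and 144 in DMSO, 268 and 248 in ET-3 and 286 and 273 in NT libraries, with 0.93 ± 0.09 (adjusted p = 8.58e-06) and 1.05 ± 0.09 (adjusted p = 3.99e-06), and the direct test gave an adjusted p of 0.518 for Vangl2 and 0.814 for Celsr1.

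Genes often used as readouts of beta-catenin activity did not share a direction. Of 19 tested, 3 were called higher and 7 lower under ET-3 (15.8% and 36.8%, against 6.62% and 14.9% of all tested genes). Under NT 4 were called higher and 6 lower (21.1% and 31.6%, against 7.3% and 13.2%). The medians were 0.10 for ET-3 and 0.28 for NT. Higher in both were Lef1, Apcdd1 and Ccnd1, the cyclin of entry into the cell cycle, which was at 964 and 926 in DMSO, 2409 and 2197 in ET-3 and 1930 and 1854 in NT libraries. Lower in both were Fst, Ephb3, Nkd1, Lgr5, Tnfrsf19 and Porcn. Fst, which encodes follistatin and is also a gene of muscle differentiation, was at 684 and 770 in DMSO, 33 and 30 in ET-3 and 27 and 24 in NT libraries, with -4.48 ± 0.14 (adjusted p = 4.95e-09) and -4.78 ± 0.14 (adjusted p = 4.11e-09). Ephb3, a receptor of ephrins, was at 759 and 832 in DMSO, 37 and 39 in ET-3 and 50 and 40 in NT libraries, with -4.35 ± 0.13 (adjusted p = 4.19e-09) and -4.12 ± 0.13 (adjusted p = 6.57e-09). Several of these readouts are Wnt genes of the set above and are counted there too. Porcn and Nkd1 are also counted in the lists of ligand release and of other inhibitors.

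**Figure D5:**
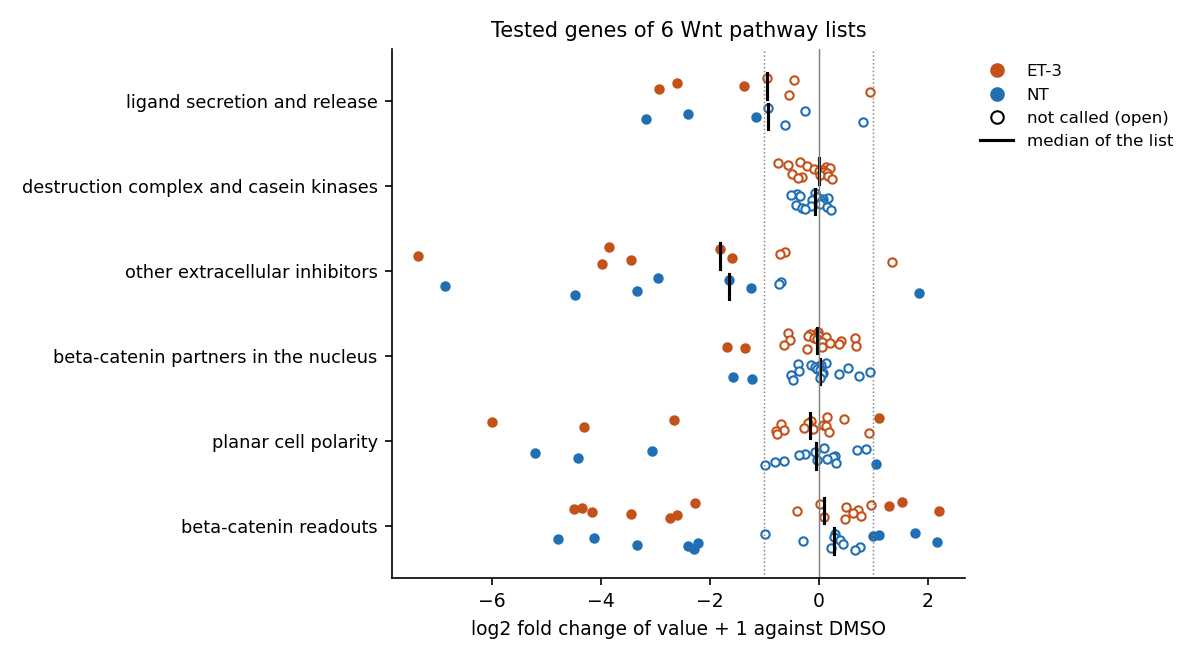
Log2 fold changes of value + 1 against DMSO (x axis) for the tested genes of 6 lists of Wnt pathway parts, with ET-3 in orange and NT in blue, filled points called and black bars at the list median. Genes of the destruction complex lie between -0.74 and 0.24, and 6 of the 9 other inhibitors lie more than 2-fold below DMSO under each ligand.

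The ligands were compared directly with each other. None of the 46 tested Wnt genes was called between NT and ET-3, where 0.079% of all tested genes were called, and 1 passed by the adjusted p, where 2.69% of all did. With voom on recovered reads, 0 were called and 3 passed. At an unadjusted p under 0.05 there were 13 Wnt genes (28.3%, against 19.9% of all tested genes), 12 of them with the higher value under NT, and 12 with voom. The median log2 difference of all tested genes was 0.03. Ctnnb1 was the gene that passed, lower with NT than with ET-3 by a log2 difference of -0.28 ± 0.05 (adjusted p = 0.0389). Both NT libraries lay below both ET-3 libraries and below both DMSO libraries. The NT libraries were also the most deeply read, with 4987960 and 5396581 reads on genes against 3629306 and 3932613 for ET-3, and the part of depth in this difference was not tested. Lgr5 had the largest difference, 1.95 ± 0.58 (adjusted p = 0.107), on 2 reads with ET-3. Lgr6 differed by 0.21 ± 0.09 (adjusted p = 0.242) and Tcf7l2 by 0.21 ± 0.06 (adjusted p = 0.0862), and neither passed.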

How the data were processed

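The 6 RNA-seq libraries of MuSCs held 2 each for DMSO, ET-3 and NT after 5 days of culture. By their methods, the authors trimmed reads with Reaper, aligned them to mm10 (GRCm38) with STAR and counted them on exons with featureCounts, without reads of several genes or regions. The submitters' processing notes name Trimmomatic 0.38, STAR 2.7.7a, featureCounts 1.6.5 and DESeq2 1.30.0. The methods name a stranded mRNA kit and the labels a SMART-Seq kit. The deposited values are a read signal, whole numbers that fit rounded products of read counts and 1 factor per library, and not raw counts. The factors, fitted to how often each value from 3 to 120 occurs, had a geometric mean of 0.997. Dividing by them gave the reads used for depth, floors and intervals. The factor of the first DMSO library is close to 1 and the least certain.

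A mean value of at least 5 was required for testing. log2(value + 1) of all 6 libraries was fitted with limma 3.58.1 (R 4.3.3; lmFit, contrasts and eBayes with a trend) in 3 comparisons, with Benjamini-Hochberg adjustment over 13921 genes. Because the values are scaled, edgeR was not used here and the authors' DESeq2 was not rerun. Calls required both at least 2-fold and an adjusted p up to 0.05. Exonic lengths came from GENCODE M21, and 51 of 52 genes had identical coordinates there. Intervals are exact and two-sided. Values in full are given for called genes and for Wnt4, Axin2, Ctnnb1 and Tcf7l2, pathway genes are named when called under both ligands (up to 4 per list and direction), and others were chosen after their values were seen. The Wnt genes and all lists were chosen with earlier results of these data known. Alternatives covered the filter, pseudocounts, scaling, voom, 2 groups alone, a replicate block, averaged pairs and each library left out. Python 3.11.15 with pandas 2.3.3, scipy 1.17.1 and matplotlib 3.10.9 made tables and plots. A marker gene of the lists is not reported here.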

Additional observations from a re-analysis of the deposited data

Results flagged for a closer look

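Ctnnb1 differed between the ligands by the direct test, at -0.28 ± 0.05 on the log2 scale for NT against ET-3 (limma, adjusted p = 0.0389), which is under 2-fold. Its values were 1748 and 1662 with NT, 2109 and 2022 with ET-3, and 1808 and 1979 with DMSO. Over the alternatives the difference ran from -0.31 to -0.24 and its adjusted p from 0.00185 to 0.704. Groups of 2 libraries allow no check of a single library against its group.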

How the results depend on the processing

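When the treated pairs were averaged into 1 sample each, the genes called higher numbered 4 under ET-3 and 4 under NT, against 8 and 9. With no fold threshold, 15 rose and 25 fell under ET-3, 16 rose and 24 fell under NT, and 1 was lower in NT than in ET-3. Leaving out 1 library gave 8 to 9 higher and 13 to 16 lower calls under ET-3, and 8 to 10 higher and 10 to 14 lower calls under NT. Scaling to library totals moved the median log2 fold change of all genes from -0.01 to 0.08 for ET-3 and 0.10 for NT, and gave 8 and 10 higher and 16 and 14 lower calls. The called Wnt genes and Wnt4, Axin2, Ctnnb1 and Tcf7l2 were followed over the alternatives. Their log2 fold changes kept their sign in every alternative fit that tested them, and the signs of other genes were not followed. Wnt10a fell under the filter without either DMSO library, Wif1 without the first, and Lgr5 when NT and ET-3 were fitted alone. Averaging ended 17 calls of the genes followed, and a higher pseudocount of 5 ended those of Fzd10 under ET-3 (-0.92) and Ror2 under NT (0.98). Fzd10 under ET-3 was not called without the filter on low values (adjusted p = 0.0540), and Fzd9 under ET-3 was called with voom (-1.01). Differences between replicates 1 and 2 were hardly correlated between groups, at -0.0080, -0.070 and -0.022. Because the treated pairs differed by about counting noise, this cannot show whether the replicate numbers pair the samples. A fit with the replicate block gave 8 higher and 16 lower calls under ET-3 and 9 and 14 under NT. In that fit Axin2 passed for NT (adjusted p = 0.0468), without a 2-fold change. Genes with few reads are limited by depth, since 3 reads correspond to values of 2.34 to 3.57.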
